A study of Bos taurus with 100 samples.

Results

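The genes described here are the fibrillar collagen genes COL1A1, COL1A2 and COL3A1 with the matrix genes SPARC and DCN (decorin), 5 of the 24616 genes in the deposited tables, taken by Ensembl identifier. Their identifiers are ENSBTAG00000013103, ENSBTAG00000013472, ENSBTAG00000021466, ENSBTAG00000014835 and ENSBTAG00000003505 in the same order, and each had 1 row in the table of each run. The symbols come from Ensembl's bovine annotation and not from the tables. They were measured one cell at a time in endothelial cells of the retinal microvasculature, the lining of its smallest vessels, isolated from bovine (Bos taurus) retinas and kept in culture. All cells were at passage 3, grown to confluence in DMEM with insulin, heparin and porcine serum, and captured on a Fluidigm C1 microfluidic chip in 2 runs, with 49 cells in run 1 and 51 in run 2. No treatment or genotype is labelled for either run, and no animal, donor or culture is named. Each run is therefore 1 sample, cells are not replicates, and no difference between the runs has a replicate check or a test.

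Type I collagen, the main fibre-forming collagen of most connective tissues, is a triple helix of 2 chains made from COL1A1 and 1 made from COL1A2. Type III collagen, made from COL3A1 alone, forms finer fibres and is found with type I in vessel walls. SPARC (osteonectin) is a secreted protein that binds collagen and calcium and acts in matrix assembly, and decorin is a small leucine-rich proteoglycan that binds collagen fibrils and is a usual product of fibroblasts. In intact vessels the fibrillar collagens are known chiefly as products of fibroblasts and mural cells, while SPARC is widely made by cultured endothelial cells.

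Levels are CPM, the reads of a gene in a cell per 1000000 reads assigned to genes in that cell. Depth per cell ran from 230083 to 798667 reads in run 1 (median 418501) and from 47118 to 3693862 in run 2 (median 1964952). The reads carry no molecular identifiers, so intervals cover counting error only. CPM is not corrected for gene length, so levels are compared between cells and runs and not between genes. Some cells stood apart from their run. Run 1 cell 12 had a higher median correlation of log2(CPM + 1) over all genes with run 2 cells (0.764) than with run 1 cells (0.718). Run 1 cell 47 was the shallowest of that run but the richest in detected genes (8055). In run 2, 97.6% of the reads of cell 74 and 92.4% of those of cell 87 fell on 50 genes, where the other cells had 16.8% to 25.9%. Also in run 2, 7 pairs of cells in neighbouring wells had near-identical profiles, with Pearson's correlation over all genes between 0.885 and 0.993. All of these pairs except cells 70 and 71 lay in columns 1 and 2 of the same row. Every run 2 cell of column 2 was in a pair. Whether the members of a pair are separate cells was not tested, and they are counted singly below. The runs used 26 well positions in common, and the tables hold no cell barcodes to compare. Markers of endothelial, mural, fibroblast or other cell types could not be examined, because none of the 24616 identifiers matched the gene table used here (0 of them), so the labelled cell type was not checked. The part of other cell types in the values below was not tested.

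Each collagen gene was read in most run 1 cells (43 to 47 of 49) and in fewer run 2 cells (16, 16 and 1 of 51), SPARC was read in every cell of both runs at a lower level in run 2, and DCN was almost absent. Of the 4 genes that reached 20 CPM in either run, all were at least 2-fold lower in run 2, as were 10.9% of the 6378 genes at that level. COL1A1, COL1A2 and COL3A1 reached 20 CPM only in run 1, where they were high, and SPARC did so in both runs. The 6378 genes were taken by whichever run was higher, so these shares are a description and not a test. These 3 collagen genes were also at least 64-fold lower, a limit that was not planned, as were 1.44% of the 6378 genes. The log2 ratios of the 4 genes ran from -11.62 (COL3A1) to -1.95 (SPARC), with a median of -6.90, and the median over the 6378 genes was 0.18. Median-of-ratios scaling shifts every ratio by -0.11, away from 0 for these genes. Leaving out cells 12 and 47, or cells 74 and 87, moved each of the 4 log2 ratios by at most 0.036.

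**Figure D1:**
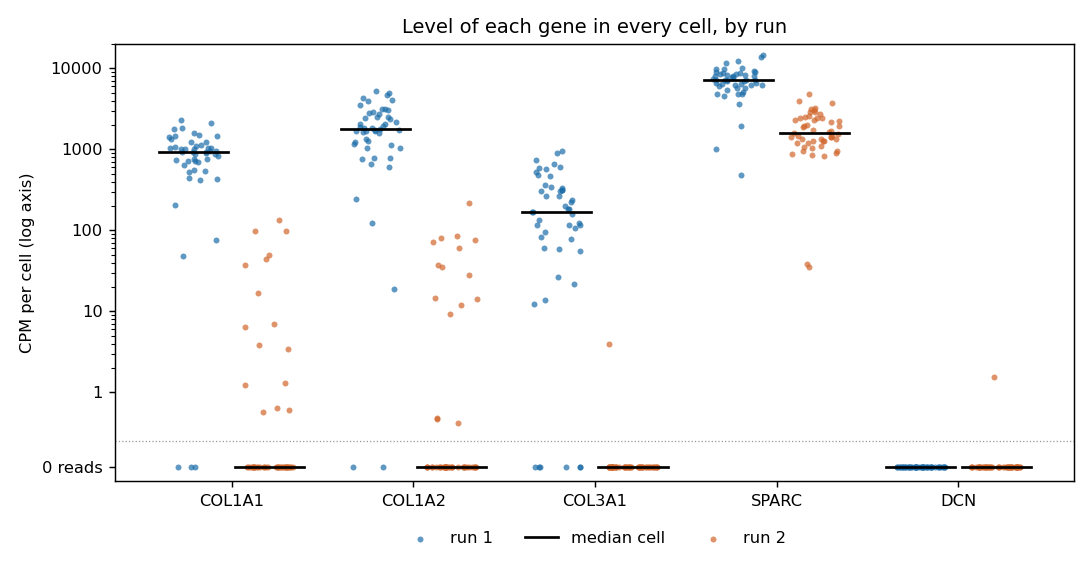
CPM of the 5 genes in every cell (points, log axis) by run, with cells without a read drawn below the dotted line and the median cell as a bar. The collagen medians are 939.1, 1798.7 and 170.7 CPM in run 1 and 0 in run 2, while the SPARC medians are 7179 and 1570.5 CPM.

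COL1A1 encodes the alpha 1 chain of type I collagen. In run 1 its level per cell ranged from 0 to 2323 CPM with a median of 939.1 (quartiles 638.1 and 1140), and in run 2 from 0 to 134.7 CPM with a median of 0. A read was present in 46 of 49 run 1 cells (93.9%, exact Clopper-Pearson 95% interval 83.1% to 98.7%) and in 16 of 51 run 2 cells (31.4%, interval 19.1% to 45.9%). The ranges overlapped only through 5 run 1 cells, and 44 run 1 cells were above the highest run 2 cell. Over summed reads, COL1A1 had 887.9 CPM in run 1 (exact Poisson 95% interval 875.1 to 900.8) and 9.27 CPM in run 2 (8.70 to 9.88). The summed level was 95.8-fold higher in run 1 (counting interval 89.7 to 102.3), a log2 ratio of run 2 over run 1 of -6.58.

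The alpha 2 chain of type I collagen is the product of COL1A2. Its level ranged from 0 to 5299 CPM in run 1 with a median of 1798.7 (quartiles 1121 and 2722), and from 0 to 215.8 CPM in run 2 with a median of 0. It had a read in 47 run 1 cells (95.9%, interval 86.0% to 99.5%) and, like COL1A1, in 16 run 2 cells (31.4%). All but 4 run 1 cells, 45 of 49, were above the highest run 2 cell. The summed level was 1983 CPM (interval 1964 to 2002) in run 1 and 13.3 CPM (12.6 to 14.0) in run 2, which is 149.6-fold higher in run 1 (counting interval 141.8 to 158.0) and a log2 ratio of -7.22.

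COL3A1 encodes the single chain of type III collagen. In run 1 it ranged from 0 to 965.0 CPM with a median of 170.7 (quartiles 59.8 and 335.7) and was read in 43 cells (87.8%, interval 75.2% to 95.4%). In run 2 it had 8 reads in all, in cell 57, which had 3.95 CPM, and none in the other 50 cells (1.96%, interval 0.0496% to 10.5%). Every run 1 cell with a COL3A1 read was above cell 57. The summed levels were 244.0 CPM in run 1 (interval 237.3 to 250.8) and 0.0774 CPM in run 2 (0.0334 to 0.152). The ratio was 3154-fold with a counting interval of 1600 to 7310, and the log2 ratio was -11.62. Of the 6378 genes, 13 had a lower ratio.

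SPARC was read in all cells of both runs. It ranged from 476.2 to 14428 CPM in run 1 with a median of 7179 (quartiles 5994 and 8483), and from 34.9 to 4876 CPM in run 2 with a median of 1570.5 (quartiles 1228 and 2428). The lowest run 2 values, 37.9 and 34.9 CPM, were those of cells 74 and 87. Without these cells the run 2 range was 837.0 to 4876 CPM. In run 1, 42 of 49 cells were above the highest run 2 cell, so the overlap rested on 7 run 1 cells. Its summed level was 7462 CPM (interval 7425 to 7499) in run 1 and 1931 CPM (1922 to 1939) in run 2, 3.87-fold higher in run 1 (counting interval 3.84 to 3.89; log2 ratio -1.95). Of the 6378 genes, 4.94% had a lower ratio.

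DCN, the decorin gene, had 0 reads among 20723781 in run 1, which allows a level of up to 0.145 CPM (3 counts) and a share of up to 6.12% of cells with a read (3 of 49 cells; the exact Clopper-Pearson upper limit is 7.25%). In run 2 it had 4 reads among 103422821, all in cell 80 (1.53 CPM), a summed level of 0.0387 CPM. The run 2 level lies under the limit that the run 1 depth allows, so no difference between the runs was detectable. The run 1 cells thus had type I and type III collagen reads without a decorin read at this depth.

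**Figure D2:**
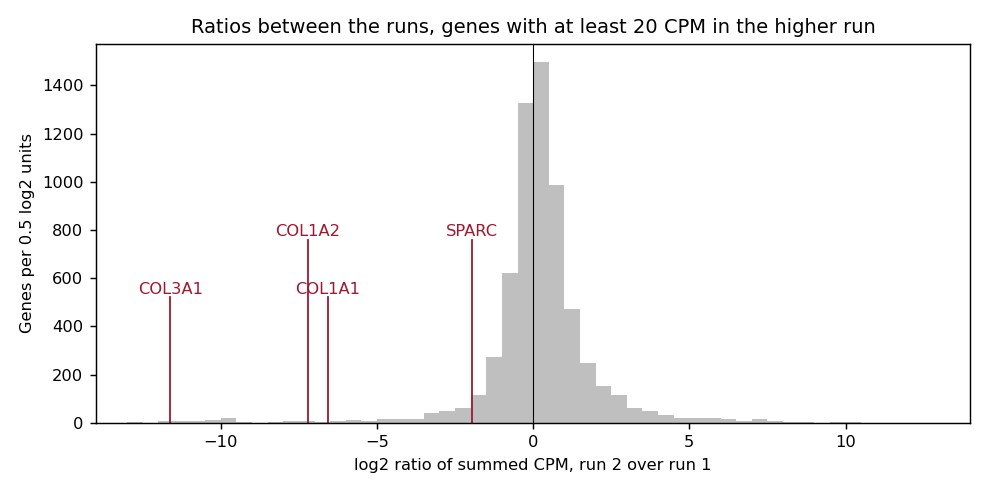
Log2 ratios of summed CPM, run 2 over run 1, for the 6378 genes that reached 20 CPM in either run (grey bars, genes per histogram bin), with 4 of the described genes as red lines. SPARC at -1.95 lies at the shoulder of the distribution, and COL1A1 at -6.58, COL1A2 at -7.22 and COL3A1 at -11.62 lie in its thin lower tail.

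The median depth was higher in run 2, although its cells 90, 95 and 98 had fewer reads than any run 1 cell. With every cell thinned to 300000 reads, which left out 7 run 1 cells and 3 run 2 cells, COL1A1 was read in 39 of 42 run 1 cells (92.9%) and 10 of 48 run 2 cells (20.8%). COL1A2 was read in 40 (95.2%) and 11 (22.9%), and COL3A1 in 36 (85.7%) and 1 (2.08%). Without thinning, COL1A1 and COL1A2 were each read in 31.4% of run 2 cells and COL3A1 in 1.96%. Loss of detection was also counted over all genes, without thinning. The limits used, 80%, 40% and 2%, were not planned and lie close to the collagen genes' own values, so the shares are a description. Of the 3425 genes read in at least 80% of run 1 cells, 67 (1.96%) were read in at most 40% of run 2 cells, and 18 (0.526%) in at most 2%, among which is COL3A1.

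Within run 1, most cells carried all 3 collagen genes. A read of each was present in 42 cells, 5 cells had 2 of the genes, and 2 cells, 12 and 19, had none (4.08%, interval 0.498% to 14.0%). In the plot of COL1A1 against COL1A2, 43 run 1 cells formed 1 group, with 417.7 to 2323 CPM of COL1A1 and 604.6 to 5299 CPM of COL1A2. The other 6 cells, numbers 2, 3, 12, 15, 16 and 19, were chosen after seeing this plot and are described singly.

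Cell 12, which by its whole profile lay nearer to run 2, had 0 reads of the 3 collagen genes and the lowest SPARC of run 1, 476.2 CPM, under the run 2 median. Cell 19 had 0 collagen reads as well, and 1024 CPM of SPARC, the next lowest of run 1. Its whole profile lay slightly nearer to run 1, with a median correlation of 0.736 over run 1 cells and 0.725 over run 2 cells. The run 1 cells other than 12 and 47 had 0.710 to 0.786 with run 1. That range also holds the value of cell 12, 0.718, so it does not tell the cells apart. At the depth of cell 19, 358214 reads, a count of 0 allows up to 8.37 CPM. Cell 3 followed with 1969 CPM of SPARC, 205.4 CPM of COL1A1 and 19.1 CPM of COL1A2, while its COL3A1, 158.8 CPM, was near the run median. The 3 run 1 cells with least SPARC were thus also the 3 with least COL1A2.

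The genes did not always go together. Cell 16 had 0 reads of COL1A1 among 493260 and 241.3 CPM of COL1A2, both low for run 1. The same cell had the highest COL3A1 of any cell, 965.0 CPM, and 13648 CPM of SPARC, under only cell 23 (14428 CPM). Cell 15 had 48.5 CPM of COL1A1 (20 reads) beside 2052 CPM of COL1A2, and cell 2 had 76.9 CPM of COL1A1 and 124.8 CPM of COL1A2 beside 340.2 CPM of COL3A1. Cell 47, rich in genes, was unremarkable for these genes, with 560.7, 2434, 569.4 and 5659 CPM of COL1A1, COL1A2, COL3A1 and SPARC. COL3A1 had no read in 6 run 1 cells, numbers 11, 12, 19, 25, 30 and 34, where a count of 0 allows up to 6.84 to 8.37 CPM. Of these, cell 11 had 4282 CPM of COL1A2 and cell 25 had 1449 CPM of COL1A1, so type I transcripts were plentiful where type III was not detected.

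**Figure D3:**
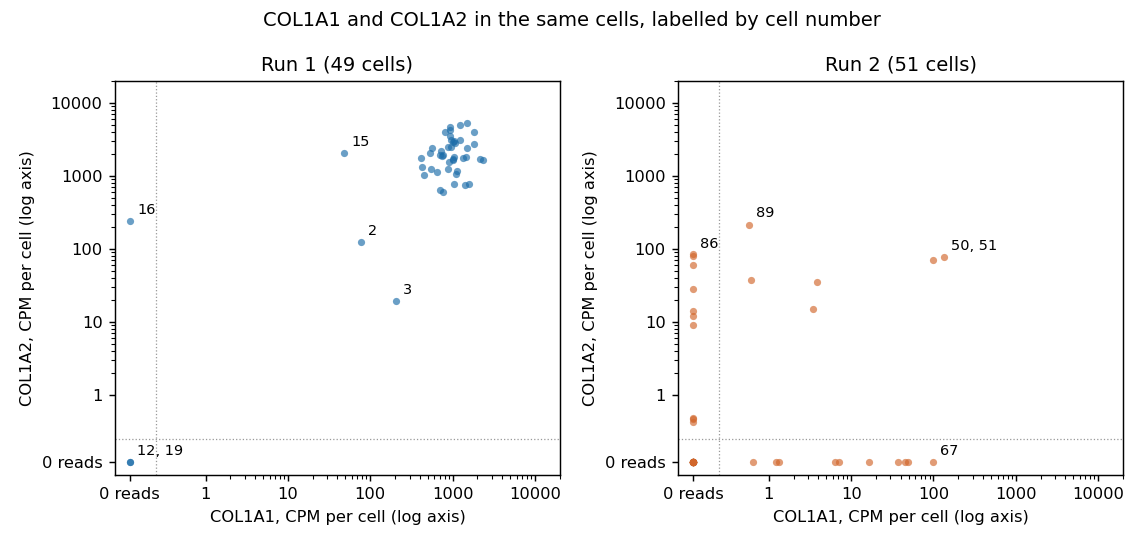
COL1A1 (x axis) and COL1A2 (y axis) in CPM per cell on log axes, run 1 left and run 2 right, with cells without a read beyond the dotted lines. In run 1, 43 cells lie together above 417.7 CPM of COL1A1 and 604.6 CPM of COL1A2, and in run 2 reads of both genes are present in 6 cells.

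Over the 46 run 1 cells with reads of both type I genes, the log2 ratio of COL1A2 to COL1A1 reads had a median of 1.21 (quartiles 0.43 and 1.64) and ran from -3.43 in cell 3 to 5.40 in cell 15, with an SD of 1.28. Reads of COL1A2 outnumbered those of COL1A1 in 37 of these cells and the reverse held in 9. Gene length enters each ratio alike and does not add to the spread, while the median itself says nothing of transcript numbers. The spread may also hold counting and other measurement error, a part that was not tested. Its ends rest on few reads, 9 of COL1A2 in cell 3 and 20 of COL1A1 in cell 15.

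Across the 49 run 1 cells, which share a chip and a range of depths, Spearman's correlation of CPM was 0.387 between COL1A1 and COL1A2, 0.439 between COL1A2 and SPARC, 0.464 between COL3A1 and SPARC and 0.351 between COL1A2 and COL3A1. COL1A1 had values of 0.0348 with COL3A1 and 0.162 with SPARC. On log2(CPM + 1), Pearson's correlation was 0.804 for COL1A1 with COL1A2 and 0.829 for COL1A2 with SPARC. These high values leaned on the cells with no COL1A1 read. Without cells 12, 16 and 19, a choice made after seeing the data, they were 0.471 and 0.620, and Spearman's values were 0.260 and 0.440. Set against the 5363 other genes used below, COL1A2 had the highest Pearson's correlation with COL1A1 and with SPARC in run 1, and SPARC had the highest with COL1A2. COL3A1 ranked 362 for COL1A1, 117 for COL1A2 and 46 for SPARC. For COL3A1 itself, SPARC ranked 2, COL1A2 ranked 16 and COL1A1 ranked 157. SPARC ranked 20 for COL1A1, and COL1A1 ranked 35 for SPARC and 3 for COL1A2. These ranks use Pearson's values over all 49 cells, and ranks without cells 12, 16 and 19 were not tested. By the smaller value of the runs, the measure planned for this, only COL1A2 reached the 50 genes most alike to another of them, at rank 40 for COL3A1. That value, 0.153, is the one of run 2, where COL3A1 was read only in cell 57, so the rank rests on 1 cell.

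SPARC varied less from cell to cell than the collagen genes did. Its coefficient of variation (SD over mean of the cells' CPM) was 0.373 in run 1 and 0.518 in run 2, where counting error at the median number of reads gives 0.0191 and 0.0177. Among the 78 genes with a mean of at least 1000 CPM in both runs, its rank from the least variable was 48 in run 1 and 62 in run 2. Without cells 74 and 87 the run 2 value was 0.469 and the rank 69, and without cells 12 and 47 the run 1 value was 0.344 and the rank 41. In run 1 the coefficient was 0.567 for COL1A1, 0.654 for COL1A2 and 0.985 for COL3A1.

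The median level of COL1A1 in run 1 also differed between the rows of wells. The median was 487.5 CPM in the 4 cells of row A, 778.8 in the 8 cells of row B and 530.0 in the 4 of row C. It was 939.1, 849.8 and 869.4 CPM in rows D, E and F, 1140 in row G and 1362.5 in the 8 cells of row H. The cells described singly above all lay in rows A (cells 2 and 3), B (cell 12), C (cells 15 and 16) and D (cell 19). Their low COL1A1 enters the medians of rows A and C, and the pattern without them was not tested. Over the 49 cells, Spearman's correlation with the order of the rows was 0.428 for COL1A1, 0.189 for COL1A2, 0.162 for COL3A1 and -0.0173 for SPARC. Depth had a correlation of -0.461 with the order of the rows, and COL1A1 had a correlation of -0.243 with depth. The fall in depth was not steady. Median depth was 439537 reads in row A, 465326.5 in row E and 435882 in row G, and only rows F (323195) and H (288960.5) were clearly lower. The part of depth and of the well in this pattern was not tested.

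**Figure D4:**
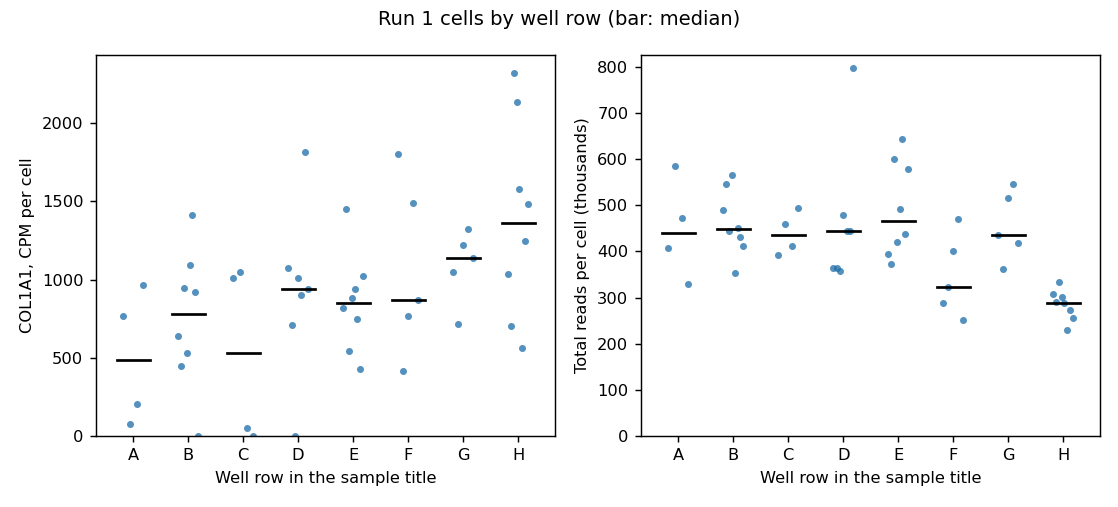
COL1A1 in CPM (left) and total reads (right, in units of 1000) of each run 1 cell by the row letter of its well, with the median of each row as a bar. Row H has the highest COL1A1 median, 1362.5 CPM, and the lowest median depth, 288960.5 reads.

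In run 2, about as many cells had a collagen read as had none. Of 51 cells, 25 had no collagen read (49.0%, interval 34.8% to 63.4%), 20 had reads of 1 collagen gene, 5 of 2 genes and 1, cell 57, of all 3. With at least 5 reads required, 34 cells had none, and COL1A1 was present in 10 cells and COL1A2 in 11. The summed level rested on few cells: cells 51, 67 and 50 held 72.9% of the COL1A1 reads, and cells 89, 86 and 51 held 60.5% of the COL1A2 reads. Cells 50 and 51 are 1 of the near-identical pairs. In run 1 the leading 3 cells held 12.7% and 18.0%.

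Each type I gene was read in 16 run 2 cells. Reads of both were present in 6 cells, numbers 50, 51, 57, 59, 66 and 89, while 10 cells had COL1A1 without COL1A2 and 10 had COL1A2 without COL1A1. In cells 59 and 89 COL1A1 had 1 read. With at least 5 reads required, 4 cells had both, 6 had COL1A1 without COL1A2 and 7 had COL1A2 without COL1A1. In run 1, 46 cells had both, none had COL1A1 alone and 1 had COL1A2 alone. Cell 67 had 99.4 CPM of COL1A1 (229 reads) and no COL1A2 read among 2302675 reads, where a count of 0 allows up to 1.30 CPM. Cell 86 showed the opposite, with 80.7 CPM of COL1A2 (263 reads) and no COL1A1 read. Whether SPARC followed the collagen genes in run 2 could not be told from such sparse collagen counts. Spearman's correlation of SPARC over the 51 cells was -0.0392 with COL1A1 and 0.0634 with COL1A2, values too weak to be read as a relation. Cell 93, with the highest SPARC of run 2, 4876 CPM, had no collagen read.

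**Figure D5:**
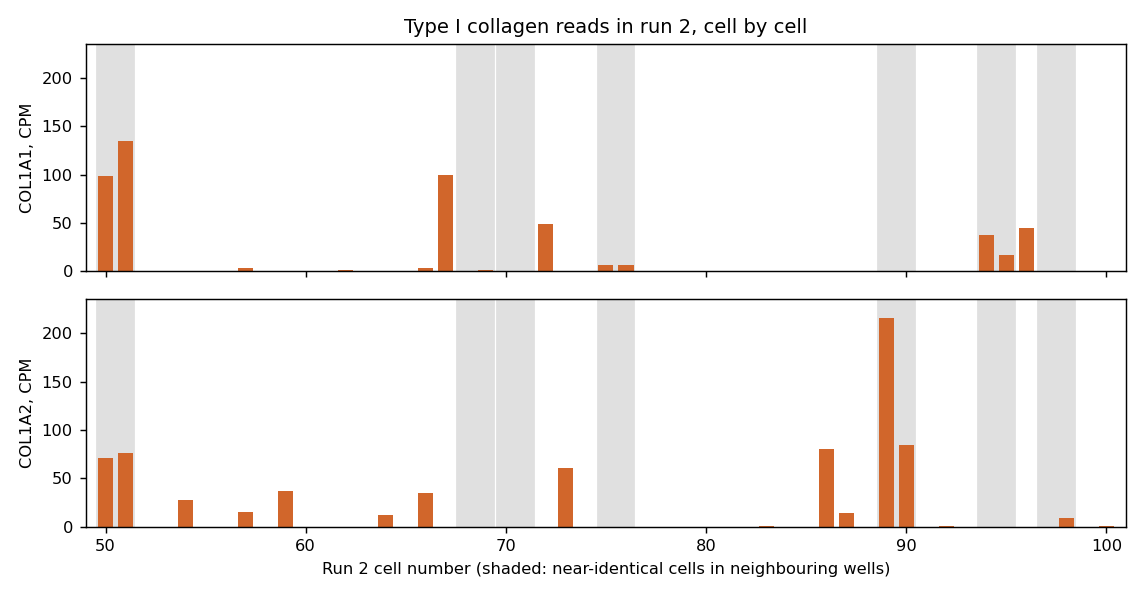
COL1A1 (top) and COL1A2 (bottom) in CPM for each run 2 cell in order of cell number, with shaded bands over the 7 pairs of near-identical cells in neighbouring wells. The bars are highest in cells 51 (134.7 CPM of COL1A1) and 89 (215.8 CPM of COL1A2), and in several bands both cells of the pair have a bar.

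The near-identical neighbouring cells of run 2 mostly had the same collagen genes. Cells 50 and 51 had 98.3 and 134.7 CPM of COL1A1 (138 and 332 reads) and 71.2 and 76.7 CPM of COL1A2 (100 and 189 reads), and they were the only run 2 cells with over 50 CPM of both. Cells 75 and 76 had 7.07 and 6.40 CPM of COL1A1 and no COL1A2 read. Cells 94 and 95 had 37.2 and 16.7 CPM of COL1A1 without COL1A2, where the second value is 1 read of 60037. Cells 89 and 90 had 215.8 and 84.9 CPM of COL1A2, where the second value is 4 reads of 47118. Cells 70 and 71 had no collagen read, and the remaining pairs, 68 with 69 and 97 with 98, had at most 2 reads. SPARC differed within these pairs by 0.20 to 0.96 on the log2 scale, with a median of 0.26, beside a median of 0.71 over the 1268 other pairs of run 2 cells. The pairs were found from their whole profiles, which include these genes, so this is a description. Without the shallower cell of each pair, the log2 ratio between the runs was -6.74 for COL1A1.

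The genes whose levels followed the described genes in both runs were sought among 5363 other genes with reads in at least 50% of each run's cells. Likeness was the Pearson correlation of log2(CPM + 1) with the mean z-score of the described genes, and genes were ranked by the smaller value of the runs. DCN, without a read in run 1, entered the score of run 2 alone. In run 2 DCN was read only in cell 80 and COL3A1 only in cell 57, so the part of each in that score rests on 1 cell. The ranking without cells 57 and 80 was not tested. ENSBTAG00000018463 had correlations of 0.601 in run 1 and 0.517 in run 2, and ENSBTAG00000018588 had 0.471 and 0.456. At the other end, ENSBTAG00000043577 had -0.261 and -0.375, and ENSBTAG00000043568 had -0.255 and -0.410. The tables do not pair these identifiers with names. Without cells 12, 47, 74 and 87 the correlations of ENSBTAG00000018463 were 0.0884 and 0.423 and it ranked 516, so its place rested on those cells, while ENSBTAG00000018588 had 0.451 and 0.257 and ranked 23. The opposed genes then had -0.270 and -0.123 (ENSBTAG00000043577) and -0.303 and -0.118 (ENSBTAG00000043568) and ranked 175 and 197 from the opposed end, so their place rested on those cells as well. The median gene had a correlation of -0.0272 in run 1 and 0.228 in run 2 with all cells, and of 0.0411 in run 2 without those cells.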

How the data were processed

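The data are raw read counts deposited by the authors, in a separate table for each run, over 24616 Ensembl identifiers and 1 column per cell; no row lacked an identifier. Named in the submitters' processing notes are HTSeq 0.6.1p1, STAR 2.5.3a, FastQC 0.11.3, MultiQC, bcl2fastq and genome build UMD3.1; the options of the tools, and whether strand was used, are not given in the sources used here. Reads of overlapping or antisense genes may therefore be counted together. The members and lists were chosen with earlier results of these data known. All 5 members are named, with 2 identifiers in each direction by likeness. Lists of matrix genes and cell type markers were not used, since the identifiers could not be matched to names. Counts were divided by the cell's or run's total (CPM), and a gene under 3 counts in a run was set to 3 for ratios. Intervals are 95%. The calculations of ratios and likeness were checked only for recovery of effects planted in simulated data. For ratios the simulated cells of a run shared 1 profile, and for likeness the values lacked the sparse counts of run 2. The checks therefore say nothing of how cell-to-cell variation or sparse counts affect the values here. Python 3.11.15, numpy 2.4.6, pandas 2.3.3 and scipy 1.17.1 were used. Depth per cell is given above. Alternatives were other weights, scalings, depths and sets of cells. No sequences are shown, and no coordinates, since the gene table used is of another build.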

Additional observations from a re-analysis of the deposited data

How the results depend on the processing

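Counting intervals are narrow, so small shifts pass them; every log2 ratio stayed negative. For COL1A1 (-6.58) it was -6.69 with median-of-ratios factors, -6.74 without the shallower cell of each near-identical pair, -6.46 with cells thinned to 300000 reads, -6.96 at 47000 reads (chosen after seeing the data) and -7.13 without the cell of each run with most reads. For COL1A2 (-7.22) it was -7.10 with equal weight per cell (-7.102) and thinned to 300000 reads (-7.098), -7.32 with TMM, -7.34 with median-of-ratios factors and -7.58 without the leading cells. For COL3A1 (-11.62) it was -10.10 and -7.62 at 300000 and 47000 reads and -12.90 without the leading cells, all resting on the floor of 3 counts in run 2. For SPARC (-1.95) it was -1.98 (-1.975) with equal weight, -2.04 with TMM, -2.06 with median-of-ratios factors, -1.96 with totals without the 5 genes, -1.98 (-1.982) without cells 12 and 47, -1.93 without cells 74 and 87, -1.99 and -1.97 at 300000 and 47000 reads and -1.97 without the leading cells. The share of run 2 cells with a COL1A1 read (31.4%) was 11.8% at 47000 reads. The share with a DCN read (1.96%) was 0% with at least 5 reads and at either depth. Over all shares and alternative settings, the other 41 values stayed within the intervals of the main values. Of the run 1 correlations, beside those above, Pearson's measure gave 0.289 for COL1A1 with COL3A1 and 0.547 for COL1A1 with SPARC. COL1A1 with COL3A1 turned to -0.0171 without cells 12, 16 and 19 and to -0.0191 without the 2 cells farthest from the COL1A1 median. COL3A1 with SPARC was 0.363 without cells 12, 16 and 19. Pearson's 0.804 and 0.829 and Spearman's 0.260 are given above. In run 2, COL1A1 with COL1A2 (0.121) was 0.225 thinned to 300000 reads, COL1A1 with SPARC turned to 0.0669 by Pearson's measure and 0.0748 thinned, and COL1A2 with SPARC turned to -0.00939 by Pearson's measure. Genes past a 2-fold difference numbered 1943, or 5121 of 12058 at a minimum of 1 CPM and 153 at a fold of 64. Where no value or construction above shows it, the cause was not tested. No paired analysis was possible because no animal, donor or culture is labelled that would link the runs.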
